A study of Mus musculus with 2 samples.

Results

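Collagens are secreted matrix proteins whose chains wind into a helical rod, and the rod can form only where glycine recurs every 3 residues along each chain. Fibrillar collagens pack into fibers that bear load, basement membrane (type IV) collagens form the sheet-like net under epithelia, endothelia and around muscle cells, and FACITs (fibril-associated collagens with interrupted helices) decorate the surface of fibers. In the embryonic heart, collagens are known from the cushions that become valves and septa, from the epicardium that covers the heart, and from the basement membranes of muscle and endocardium.

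The RNA came from whole hearts of mouse embryos at embryonic day 10.5, of the C57BL/6N substrain B6NCrl, with no treatment or mutation named in the labels. There was 1 group with 2 libraries, made from a pool of 69 embryos of both sexes (replicate 1) and a pool of 51 embryos of both sexes (replicate 2). The collagen genes were taken by symbol, as every protein-coding gene named Col, a number, a and a number, which gave 44 genes of 43346 mouse genes and of 21474 protein-coding genes. Of these, 11 encode fibrillar chains, 6 basement membrane chains, 9 FACIT chains and 18 chains of other kinds. Each library is a pool, so differences between single embryos cannot be seen, and with 1 group of 2 libraries no test between conditions was possible and no p-value was computed. The only error available is the spread between the pools. A change in the number of cells of a type and a change in RNA per cell cannot be told apart in such bulk RNA.

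Replicate 1 held 45205713 expected counts (reads assigned to genes by estimation) and replicate 2 held 41070978, and collagen genes received 224779 and 196561 of them. All 7 markers of heart muscle were detected, led by Actc1 and Myl7, with summed levels of 16223 TPM in replicate 1 and 25641 TPM in replicate 2 (a relative level corrected for transcript length). Markers of tissues beside the heart differed between the pools, and the 8 liver markers summed to 1312.9 TPM in replicate 1 and 53.14 TPM in replicate 2. Those of the gut tube (7 foregut endoderm markers) summed to 386.78 and 155.71 TPM. Most of this sum came from Krt8 (174.68 and 76.59 TPM, replicate 1 first) and Krt18 (156.96 and 68.35 TPM). It thus mainly gives the level of these genes and is not read as an amount of gut tube RNA. Next were Cldn6 with 26.78 and 5.42 TPM and Epcam with 22.76 and 4.96 TPM. None of the liver markers was at 0 in either library. These values are given again below where collagen genes differ between the libraries.

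In the coding sequence of collagen genes, glycine codons repeat every 3 codons. Fibrillar genes stand apart by how long the repeat runs, and basement membrane genes have the most runs. A stretch of 27 codons is shown for the most abundant gene of each class. For the fibrillar gene the start of its longest run was picked, and for the others the first short break between 2 runs. The stretches thus illustrate the repeat and its breaks and do not compare the classes. Unbroken runs of as many as 40 triplets in Col4a1 and 113 in Col9a1 lie elsewhere in those genes. The stretches were read from GENCODE M21 transcripts (GRCm38, which is mm10), 5′ to 3′ on the coding strand, with glycine codons in capitals. The Col3a1 stretch (chromosome 1, codons 164 to 190 of Col3a1-201) opens the longest run of the repeat in any collagen gene, 344 triplets. In the Col4a1 and Col18a1 stretches, the step of 3 codons is broken once by 2 extra codons. In the Col9a1 stretch it is broken once by a step of 2 codons. The Col4a1 stretch comes from chromosome 8 (codons 212 to 238 of Col4a1-201), the Col9a1 stretch from chromosome 1 (codons 347 to 373 of Col9a1-201) and the Col18a1 stretch from chromosome 10 (codons 939 to 965 of Col18a1-201).
Col3a1: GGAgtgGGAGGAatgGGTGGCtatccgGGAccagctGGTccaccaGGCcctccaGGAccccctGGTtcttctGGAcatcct
Col4a1: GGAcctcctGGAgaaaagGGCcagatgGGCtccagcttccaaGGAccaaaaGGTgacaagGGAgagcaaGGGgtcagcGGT
Col9a1: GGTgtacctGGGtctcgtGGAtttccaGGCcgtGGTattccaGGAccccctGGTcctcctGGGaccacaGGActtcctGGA
Col18a1: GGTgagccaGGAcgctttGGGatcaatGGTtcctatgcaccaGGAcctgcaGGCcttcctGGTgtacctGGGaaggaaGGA

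Over whole coding sequences, the 11 fibrillar genes held a median of 2 runs (5 or more glycine codons spaced 3 codons apart), the longest with a median of 338 triplets and a range of 216 to 344. The 6 basement membrane genes held a median of 24 runs, and their longest runs had a median of 43.5 triplets (39 to 66). The longest runs of the FACIT genes had a median of 57 triplets (32 to 113) and those of the other classes 44.5 (23 to 87). The lowest of the fibrillar values, 216, was thus above the highest outside that class, 113. The basement membrane genes had the most runs, 22 to 27 each, just above the highest FACIT value, 21, and the highest value of the other classes, 20. The values of FACIT and other genes overlapped. Col12a1, a large FACIT that joins fibers to other matrix, had 8.12% of its codons in such runs, and Col4a1 had 78.4%.

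**Figure D1:**
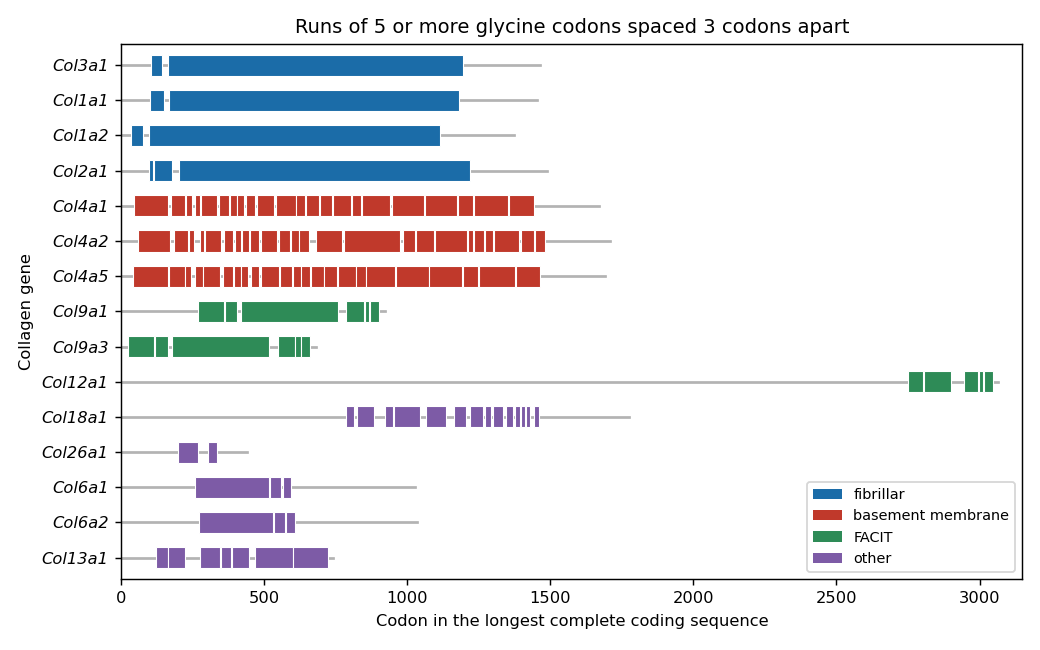
Blocks mark runs of 5 or more glycine codons spaced 3 codons apart along the longest complete coding sequence (x axis, codon number) of 15 collagen genes, colored by class. Fibrillar genes carry 1 long block (344 triplets in Col3a1), and basement membrane genes carry many short ones (22 runs in Col4a1).

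Most collagen genes were detected. Of the 44, 29 reached 1 TPM in both libraries (65.9%), against 57% of all protein-coding genes, a difference that was not tested. By class these were 8 of 11 fibrillar, 4 of 6 basement membrane, 7 of 9 FACIT and 10 of 18 other genes. Together the 44 genes summed to 1511.4 TPM in replicate 1 and 1395.5 TPM in replicate 2, which is 0.177 ± 0.0124% of all TPM on nuclear protein-coding genes (SD, n = 2). A few genes held most of this: the 5 most abundant gave 67.7% of collagen TPM in replicate 1 and 69.9% in replicate 2, and the 10 most abundant gave 86.9% and 88.2%. At least 100 TPM in both libraries was reached by 4 genes, namely Col3a1, Col18a1, Col1a1 and Col2a1, and at least 10 TPM by 16.

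**Figure D2:**
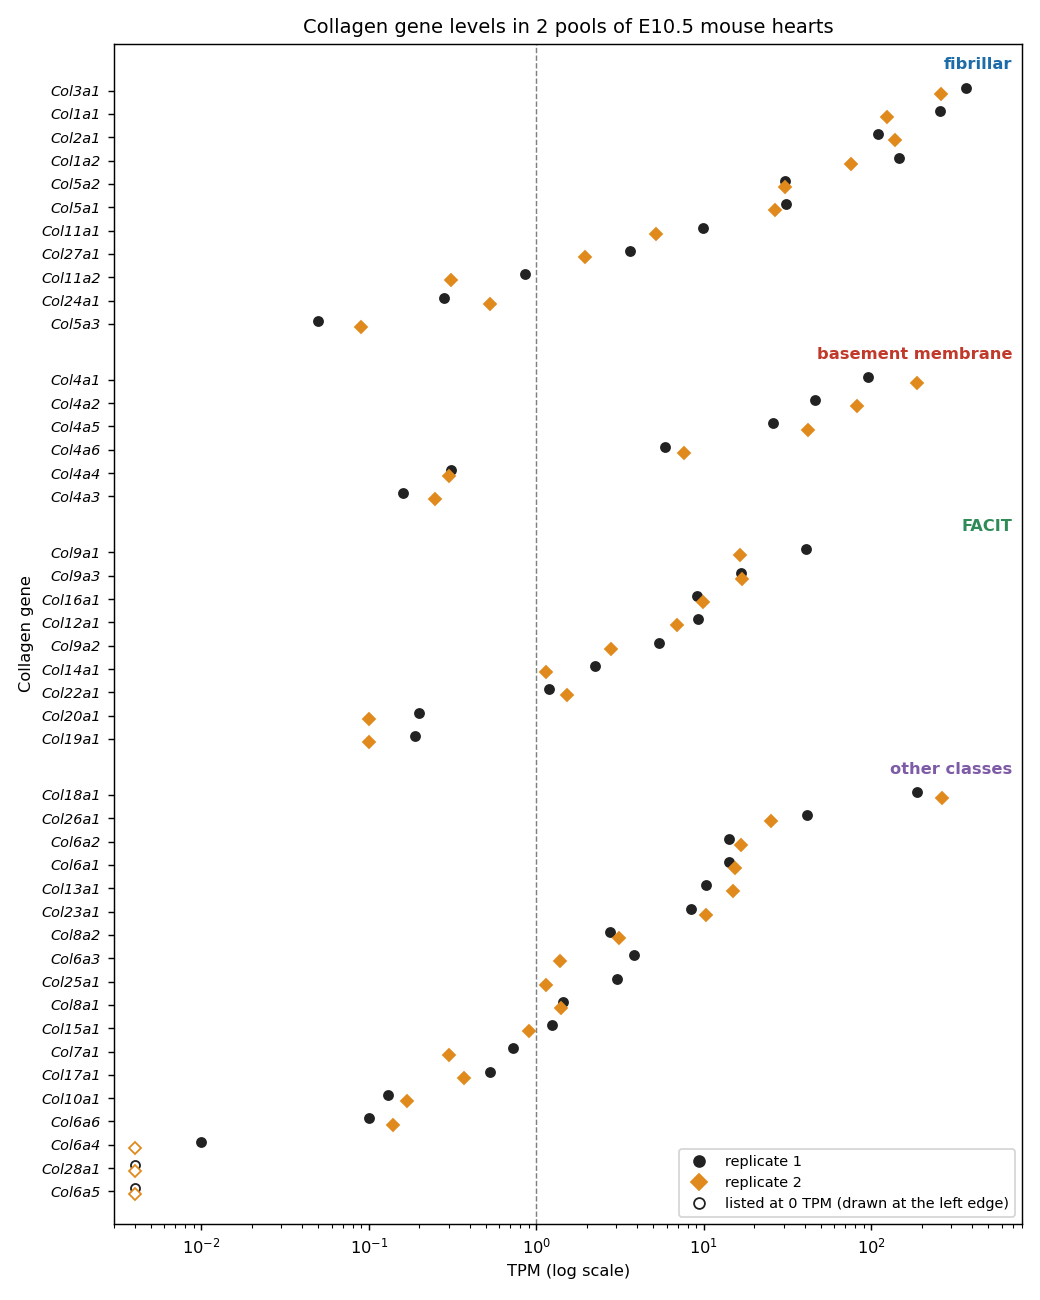
TPM (x axis, log scale) of each of the 44 collagen genes in replicate 1 (black circles) and replicate 2 (orange diamonds), grouped by class, with a dashed line at 1 TPM and open symbols for genes listed at 0. The genes span from 0 to 369.84 TPM, and 29 lie right of the line in both libraries.

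The fibrillar class was the most abundant in both libraries. It summed to 961.86 TPM in replicate 1 and 665.25 TPM in replicate 2, or 63.6% and 47.7% of collagen TPM (55.7 ± 11.3%, SD, n = 2). Col3a1, the chain of type III collagen of stretchable tissues (chr1:45311538-45349706), had 369.84 TPM in replicate 1 and 261.69 TPM in replicate 2. By mean TPM it ranked first among collagens and 426th among all protein-coding genes, but in replicate 2 it stood just below Col18a1. Col1a1, the major chain of type I collagen of tendon and bone (chr11:94936224-94953042), had 258.51 TPM in replicate 1 and 123.85 TPM in replicate 2. Its partner chain Col1a2 (chr6:4504814-4541544) had 146.76 TPM in replicate 1 and 75.65 TPM in replicate 2. Both type I chains were thus higher in replicate 1, and the deposited intervals of TPM of each did not overlap between the libraries.

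The ratio of the type I chains to each other varied less than their levels. Col1a1 exceeded Col1a2 by 1.76-fold in replicate 1 and 1.64-fold in replicate 2 (0.76 ± 0.07 on the log2 scale of TPM + 0.1, SD, n = 2). As background, the common type I molecule holds Col1a1 and Col1a2 chains in unequal number, with more of Col1a1. By gene TPM, Col1a1 stood at 0.699 of the level of Col3a1 in replicate 1 and 0.473 in replicate 2. In replicate 1 this order rests on a short model of Col3a1 of 737 nt that holds 26.9% of its TPM: the main transcripts, Col1a1-201 and Col3a1-201, had 256.05 and 260.37 TPM there, and the genes had 45439 and 45413 counts. In replicate 2 the main transcripts had 123.33 TPM (Col1a1-201) and 200.65 TPM (Col3a1-201).

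Col2a1, the chain of type II collagen (chr15:97975602-98004695), best known from cartilage and notochord, had 110.32 TPM in replicate 1 and 139.10 TPM in replicate 2. It was the only one of the 4 most abundant fibrillar genes with more TPM in replicate 2. Of 10 markers of cartilage and notochord, 5 were detected, led by Hapln1 and Sox5. Their list summed to 82.26 TPM in replicate 1 and 103.54 TPM in replicate 2, a sum carried by Hapln1 with 58.24 and 84.17 TPM. Of the 7 with enough counts for a ratio, 5 were higher in replicate 1 and 2 in replicate 2 (median log2 ratio 0.46). Hapln1, at -0.63, lay on the side of Col2a1 (-0.45), and Sox5, at 0.52, did not. Matn1, a cartilage matrix protein, and Noto, a notochord factor, were listed at 0 in both. Whether Col2a1 RNA came from such tissue or from cells of the heart was not tested.

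The main Col2a1 transcript kept exon 2. This exon encodes a cysteine-rich part of the N-terminal propeptide, and the form that keeps it, known as type IIA, is the one made by cells before they become cartilage. Col2a1-201, which includes it, held 68.1% of the gene's TPM in replicate 1 and 72.1% in replicate 2 (70.1 ± 2.87%, SD, n = 2). Col2a1-202, which lacks it, held 25.03% in replicate 1 and 21.68% in replicate 2. The exon lies on the minus strand at chr15:98000403-98000606 (mm10, GENCODE M21) and adds 204 bases to the coding sequence, 4461 nt in Col2a1-201 against 4257 nt in Col2a1-202. Its sequence is shown because it is the part by which the transcripts differ, and it was read from the GENCODE M21 transcript, all in lower case as no letter is singled out.
Col2a1 exon 2: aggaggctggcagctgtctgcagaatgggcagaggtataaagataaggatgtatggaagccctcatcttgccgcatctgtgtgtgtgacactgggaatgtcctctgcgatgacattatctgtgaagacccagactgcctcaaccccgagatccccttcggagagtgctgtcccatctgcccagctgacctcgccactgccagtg

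The minor fibrillar genes encode chains that start fibers and set their width. Col5a2 had 30.53 TPM in replicate 1 and 30.42 TPM in replicate 2, and Col5a1, its partner in type V collagen, had 31.14 and 26.48 TPM. These chains could not be ranked, since Col5a1 was 1.02 times Col5a2 in replicate 1 and 0.871 times in replicate 2. Col5a3, a further type V chain, was near the floor with 9 and 15 counts. Col11a1, a type XI chain that joins type II fibers, had 9.95 TPM in replicate 1 and 5.18 TPM in replicate 2, and it exceeded Col11a2 by 10.5-fold and 12.9-fold. Col2a1 exceeded Col11a1 by 11.0-fold in replicate 1 and 26.4-fold in replicate 2, and of the fibrillar pairs compared this ratio varied most between the libraries. The remaining fibrillar genes are Col27a1, with 3.62 TPM in replicate 1 and 1.95 TPM in replicate 2, and Col24a1, below 1 TPM in both.

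The basement membrane class ran the other way. It summed to 174.02 TPM in replicate 1 and 319.27 TPM in replicate 2, or 11.5% and 22.9% of collagen TPM (17.2 ± 8.04%, SD, n = 2). Col4a1 (chr8:11198423-11312826) had 95.72 TPM in replicate 1 and 187.20 TPM in replicate 2. Col4a2 (chr8:11312805-11449287), its partner in the most widespread type IV molecule, had 45.99 TPM in replicate 1 and 82.16 TPM in replicate 2. Both were higher in replicate 2, and Col4a1 exceeded Col4a2 by 2.08-fold in replicate 1 and 2.28-fold in replicate 2 (1.12 ± 0.09 on the log2 scale, SD, n = 2). As background, that molecule also holds its chains in unequal number, with more of Col4a1.

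The other type IV chains form molecules of narrower distribution, such as those of kidney and lung. Col4a5, on the X chromosome, had 25.99 TPM in replicate 1 and 41.73 TPM in replicate 2. Its neighbor Col4a6 had 5.85 TPM in replicate 1 and 7.63 TPM in replicate 2, so that by gene TPM Col4a5 exceeded it by 4.38-fold and 5.41-fold. The size of this excess rests in part on Col4a5-204, a model of 3511 nt with 48.6% of Col4a5 TPM in replicate 1 and 38.8% in replicate 2. The main transcript Col4a5-202 had 12.89 TPM in replicate 1 and 24.22 TPM in replicate 2. That of Col4a6, Col4a6-201, had 5.74 and 7.63 TPM. Col4a3 and Col4a4, whose products are needed for the mature kidney filter together with Col4a5, stayed at 0.31 TPM or less in both libraries with 37.92 to 58.21 counts. They could not be ranked against each other. At the 1 TPM threshold Col4a5 was thus detected without the pair it joins in the kidney.

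The 6 type IV genes lie in 3 pairs that start head to head. In the GENCODE M21 models, Col4a1 and Col4a2 overlap by 22 bases at their starts, Col4a4 and Col4a3 are 71 bases apart on chromosome 1, and Col4a6 and Col4a5 are 1308 bases apart on the X chromosome. Levels within a pair were unequal in the pairs on chromosomes 8 and X, as given above. The labels do not say whether strand was used in counting, which leaves reads from the 22 shared bases uncertain.

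**Figure D3:**
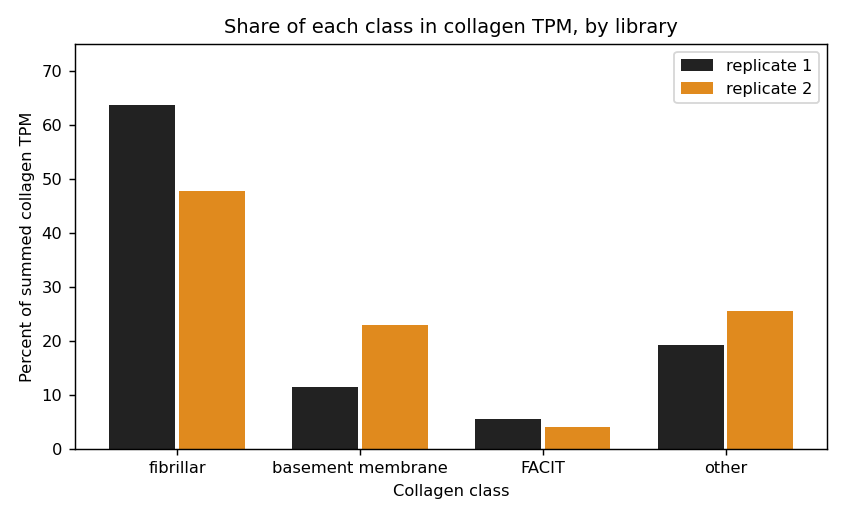
Share of summed collagen TPM (y axis, percent) held by each class in replicate 1 (black bars) and replicate 2 (orange bars), 1 bar per library and no error bar. Fibrillar genes hold 63.6% in replicate 1 and 47.7% in replicate 2, and basement membrane genes 11.5% and 22.9%.

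The class ratio summarizes this contrast. Fibrillar TPM was 5.53 times basement membrane TPM in replicate 1 and 2.08 times in replicate 2. Both libraries gave the same order, but the size of the excess was unequal in pools of the same stage.

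The FACIT class was the least abundant, with 84.79 TPM in replicate 1 and 55.92 TPM in replicate 2, or 4.81 ± 1.13% of collagen TPM (SD, n = 2). Col9a1, a chain of type IX collagen, which coats type II fibers, had 40.52 TPM in replicate 1 and 16.41 TPM in replicate 2. Its partner Col9a3 had 16.74 TPM in replicate 1 and 17.02 TPM in replicate 2. Col9a2, the other chain of that molecule, had 5.37 TPM in replicate 1 and 2.79 TPM in replicate 2. Col9a1 and Col9a3 thus changed order between the libraries, while Col9a2 was below Col9a3 in both, at 0.325 and 0.169 of its level.

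Nearly all Col9a1 TPM sat on the short transcript. Col9a1-202 starts downstream at chr1:24195187, has a coding sequence of 2040 nt and held 99.1% of the gene's TPM in replicate 1 and 98.5% in replicate 2. Col9a1-201 starts at chr1:24177610 and codes over 2763 nt, including the large N-terminal domain that projects from cartilage fibers. The short form, from a downstream promoter, is known from the embryonic cornea of the chick.

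Among other FACITs, Col16a1, a fiber and cell surface partner, had 9.14 TPM in replicate 1 and 9.86 TPM in replicate 2. Col12a1 had 9.20 TPM in replicate 1 and 6.97 TPM in replicate 2, and it exceeded the related Col14a1 by 3.97-fold and 5.70-fold. Col14a1 had 2.24 TPM in replicate 1 and 1.14 TPM in replicate 2, and Col22a1, a collagen of tissue junctions, had 1.19 and 1.53 TPM. Col19a1 and Col20a1 did not pass 0.20 TPM in either library.

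The other classes were led by a single gene. Col18a1, whose product carries heparan sulfate in basement membranes and ends in the endostatin domain (chr10:77052178-77166548), had 188.28 TPM in replicate 1 and 263.65 TPM in replicate 2. It ranked second among collagens by mean TPM, but below Col1a1 by mean count: in replicate 1 it stood below Col1a1, and in replicate 2 it had the highest TPM of all collagens. Like the type IV genes it was higher in replicate 2, at a log2 ratio of scaled counts of -0.58. The related Col15a1 had 1.24 TPM in replicate 1 and 0.91 TPM in replicate 2, a log2 ratio to Col18a1 of -7.14 and -8.03.

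Col18a1 TPM sat almost wholly on the transcript from the upstream start. Col18a1-202 starts at chr10:77166548 on the minus strand, codes over 3945 nt and held 99.4% of the gene's TPM in replicate 1 and 99.5% in replicate 2. Col18a1-201, with a start at chr10:77113946, has the longest coding sequence, 5322 nt. As background, the upstream start gives the short form found in vascular and epithelial basement membranes, and the downstream start gives the longer forms abundant in liver.

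Col26a1, a small collagen first described in testis and ovary, had 41.52 TPM in replicate 1 and 25.09 TPM in replicate 2. Type VI collagen, which forms beaded filaments around cells, gave 32.38 TPM in replicate 1 and 33.59 TPM in replicate 2 over its 6 genes. Its Col6a1 had 14.21 TPM in replicate 1 and 15.40 TPM in replicate 2, and Col6a2 had 14.22 and 16.67 TPM. These chains could not be ranked, at ratios of 0.999 and 0.924. Col6a3, the long chain that completes the common molecule, was lower, with 3.84 TPM in replicate 1 and 1.38 TPM in replicate 2. Of its TPM, 50.3% in replicate 1 and 52.2% in replicate 2 sat on a retained-intron model of 646 nt, while Col6a3-202, which codes for the chain, held 85.4% and 87.1% of the counts. The level of Col6a3 per length thus rests on how counts were divided among transcripts. Col6a5 and Col28a1 had 0 counts in both libraries, and Col6a4 had 3 counts in replicate 1 and 0 in replicate 2. From counting error alone, 0 counts leave room for as many as 3 in a library.

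Transmembrane collagens gave 22.28 TPM in replicate 1 and 26.79 TPM in replicate 2 over 4 genes. Col13a1, found at cell junctions and the nerve-muscle contact, had 10.27 TPM in replicate 1 and 15.00 TPM in replicate 2. Col23a1 had 8.45 TPM in replicate 1 and 10.28 TPM in replicate 2, Col25a1, which guides motor nerves into muscle, had 3.03 and 1.14 TPM, and Col17a1 of the epidermal hemidesmosome stayed below 1 TPM. The short chain genes Col8a1 and Col8a2, of vessel and corneal endothelium, had 1.41 to 3.10 TPM, with Col8a1 at 0.540 of Col8a2 in replicate 1 and 0.472 in replicate 2. Col10a1, the marker of hypertrophic cartilage, had 12 and 14 counts. Col7a1, which anchors epidermis to dermis, stayed below 1 TPM.

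Of 17 pairs of related chains compared by gene TPM within each library, 13 had the same order in both with deposited intervals that did not overlap. The 4 that did not were Col5a1 and Col5a2, Col4a3 and Col4a4, Col6a1 and Col6a2, and Col9a1 and Col9a3. Among the 13 are Col1a1 and Col3a1, whose order in replicate 1 rests on a short model of Col3a1, as given above. In 26 of the 29 detected genes the same transcript held the largest share of TPM in both libraries, the exceptions being Col13a1, Col16a1 and Col27a1. By counts the leading transcript coded for protein in all 29. By TPM it did so in 26, the exceptions being Col16a1, Col27a1 and Col6a3.

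The libraries were then compared as log2 ratios of counts after TMM scaling (which sets the bulk of genes equal), replicate 1 over replicate 2, for the 41 collagen genes with a mean count of 10 or more. At the spread estimated over 17557 genes, a biological coefficient of variation of 0.298, the SD of such a ratio is 0.61. Over all 41 genes the median was -0.07, with 20 genes above 0, against a median of 0.00 and 50.2% above 0 over 14806 protein-coding genes. The collagen quartiles, -0.45 and 0.73, lay wider apart than those of all protein-coding genes, -0.26 and 0.28. The classes differed in direction. Fibrillar genes had a median of 0.59, which is the value of Col24a1 (54 and 30 counts), and 0.51 at a minimum mean count of 50. Of the 11 fibrillar genes, 8 were higher in replicate 1. Among these, Col3a1 and Col5a1 change side with spike-in scaling, and Col24a1 does so with deposited TPM. All 6 basement membrane genes had more scaled counts in replicate 2, with a median of -0.86 and a range of -1.07 to -0.34, although Col4a4 turned to 0.05 when deposited TPM was used in place of counts. FACIT genes had a median of 0.44, with 6 of 9 higher in replicate 1, and the other classes a median of -0.20, with 6 of 15 higher in replicate 1.

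Scaling matters for these values. The median over all protein-coding genes moved by -0.32 when the scale came from ERCC spike-ins, synthetic RNAs of known amount, by 0.10 with deposited TPM and by 0.13 with total counts on mouse genes. The medians of the 4 classes kept their sign under each. Single genes near 0 did not: Col3a1 (0.29) turned to -0.03 and Col5a1 (0.13) to -0.19 with spike-in scaling. Col5a2 (-0.10) and Col8a1 (-0.07) turned positive with deposited TPM and with total counts. Other genes with ratios near 0 can change side in the same way. The counts of members higher in either library are thus uncertain in any list with such members, also where its median is not near 0.

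**Figure D4:**
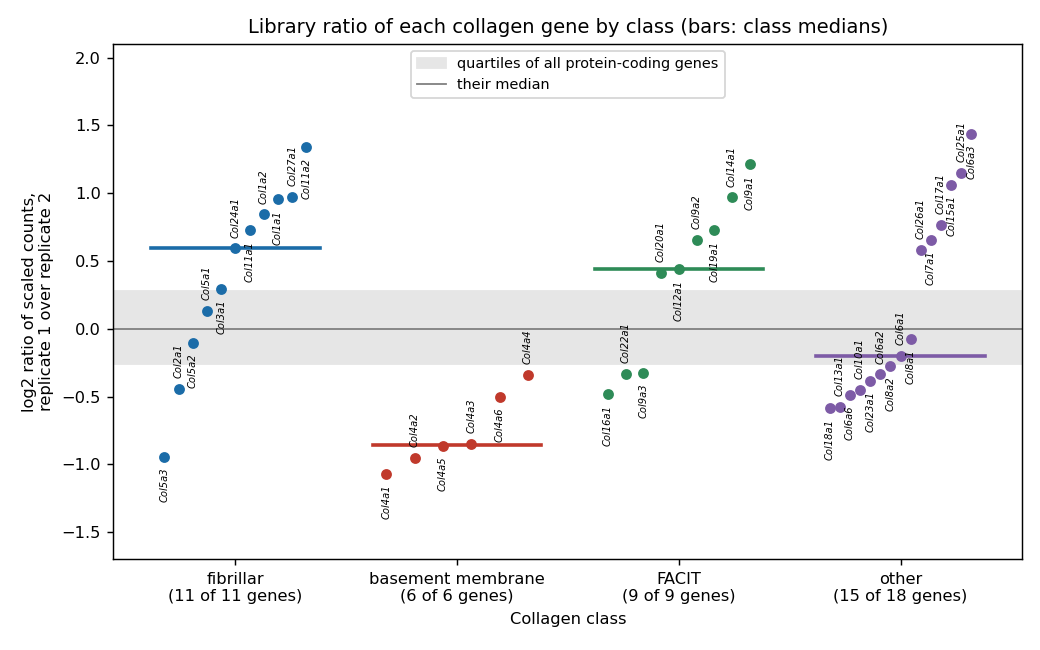
The log2 ratio of scaled counts, replicate 1 over replicate 2 (y axis), of each collagen gene with a mean count of 10 or more, by class (x axis), with bars at class medians and a gray band for the quartiles of all protein-coding genes. All 6 basement membrane genes lie below 0 (median -0.86), of which Col4a4 turns to 0.05 with deposited TPM, and 8 of 11 fibrillar genes lie above 0 (median 0.59), of which Col3a1 and Col5a1 turn negative with spike-in scaling and Col24a1 with deposited TPM.

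To be called differing, a gene needed a mean count of at least 50, a ratio of at least 2-fold and deposited TPM intervals that stood apart. By this rule 4 of 32 collagen genes differed, against 7.06% of all 14131 genes. Higher in replicate 1 were 3 of them, against 4.76% of all genes, and higher in replicate 2 was 1, against 2.31%. With so few genes the share of collagens is not read as different from the background. At an SD of 0.61 a 2-fold ratio lies within 2 SD of 0, so a gene called differing is one in which these libraries differ, and is not shown to exceed the spread between pools. Spike-in scaling gave 1 collagen gene higher in replicate 1 and 3 higher in replicate 2, deposited TPM gave 4 and 0, and total counts gave 6 and 0, so the split depends on the scale. Over all genes, 67.3% of differing genes were higher in replicate 1 with TMM scaling, 33.7% with spike-ins and 78.6% with total counts.

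The gene higher in replicate 2 was Col4a1, with 18940 counts in replicate 1 and 33457 in replicate 2, a log2 ratio of -1.07. Col6a3 had the highest ratio at 1.44, from 513 counts in replicate 1 and 159 in replicate 2. Col9a1 followed at 1.21, from 3625 and 1317 counts, and Col25a1 at 1.15, from 436 and 165 counts. Just short of 2-fold were Col1a1 at 0.95, Col27a1 and Col14a1 at 0.97, and Col4a2 at -0.95. In Col15a1 the ratio was 1.06 but its intervals overlapped, and Col11a2, at 1.34, had too low a mean count.

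Cell type markers had unequal levels in the same libraries. The rule for differing was met by 2 of 10 mesenchyme and 0 of 7 endothelium markers. It was met by 1 of 7 heart muscle and 0 of 6 epicardium markers, against 7.06% of all genes. The 10 markers of cushion and other mesenchyme, led by Vcan and Postn, summed to 450.94 TPM in replicate 1 and 362.60 TPM in replicate 2. By scaled counts 9 of 10 were higher in replicate 1, at a median log2 ratio of 0.64. The exception was Vcan itself, at -0.61, with 89.53 TPM in replicate 1 and 139.93 TPM in replicate 2. All 7 markers of endothelium and endocardium, led by Tek and Emcn, were higher in replicate 2, with sums of 186.02 TPM in replicate 1 and 258.34 TPM in replicate 2 and a median of -0.52. The 7 heart muscle markers also all stood higher in replicate 2 (median -0.81). The 6 epicardial markers, led by Upk3b and Tcf21, had a median of 0.05, with sums of 271.14 TPM in replicate 1 and 252.42 TPM in replicate 2. None of the markers in these 4 lists was at 0.

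Markers from outside the heart were mostly higher in replicate 1. All 8 liver markers, led by Afp and Apoa2, had a median log2 ratio of 4.64, and all 7 foregut markers, led by Krt8 and Krt18, a median of 2.20. The skeletal myoblast list, led by Myf5 and Myog, summed to 6.61 TPM in replicate 1 and 2.25 TPM in replicate 2. Epidermis markers, led by Trp63 and Krt14, summed to 8.44 TPM in replicate 1 and 2.39 TPM in replicate 2. Red cell markers, led by Hbb-y and Hbb-bh1, summed to 32600 TPM in replicate 1 and 40782 TPM in replicate 2. Of those with a mean count of at least 50, 8 of 8 liver and 6 of 6 foregut markers differed by the rule. The same held for 2 of 3 myoblast and 1 of 1 epidermis markers but for 0 of 6 red cell markers, against 7.06% of all genes. What part any of these cell types has in the collagen ratios was not tested.

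Basement membrane partners mostly had ratios below 0, as the type IV genes did, but 1 of 11 met the rule for differing. Of 11 laminin, nidogen and proteoglycan genes, all were detected and 10 had ratios below 0 (median -0.55), though some lie nearer to 0 than the shifts between scales. Nid2, which links laminin to type IV collagen, had 117.87 TPM in replicate 1 and 190.69 TPM in replicate 2. Lama4, a laminin chain of endothelium and muscle, had 49.69 TPM in replicate 1 and 108.38 TPM in replicate 2, and at a ratio of -1.29 it met the rule for differing. The laminin chains Lamb1 and Lamc1 had ratios of -0.79 and -0.67.

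The enzymes that modify new collagen chains were all detected, with ratios on both sides of 0. All 15 genes of prolyl and lysyl modification were detected, 7 higher in replicate 1 and 8 in replicate 2, with a median of -0.18 and none differing. P4hb, a subunit of prolyl 4-hydroxylase and a disulfide isomerase, had 559.56 TPM in replicate 1 and 466.21 TPM in replicate 2. Ppib, a prolyl isomerase of the same compartment, had 422.64 and 349.03 TPM, and its complex partner Crtap 76.91 and 104.96 TPM. P3h4, which takes part in lysyl hydroxylation, had 68.10 TPM in replicate 1 and 60.20 TPM in replicate 2.

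Folding and secretion genes were likewise all detected, 10 of 10, with 3 higher in replicate 1, a median of -0.26 and none differing. Serpinh1, the collagen chaperone HSP47, had 1380.8 TPM in replicate 1 and 1239.8 TPM in replicate 2. Its level was above that of any single collagen gene. Sparc, a secreted collagen-binding protein, had 876.85 TPM in replicate 1 and 992.89 TPM in replicate 2, followed by the isomerase Fkbp10 with 90.04 and 104.90 TPM and the export receptor Mia3 with 74.27 and 70.77 TPM.

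Genes that trim propeptides were detected in 7 of 9 cases, with a median of -0.06 that turned to 0.04 with deposited TPM. Pcolce, an enhancer of the C-propeptide protease, had 112.14 TPM in replicate 1 and 93.60 TPM in replicate 2, ahead of that protease Bmp1 with 20.76 and 20.25 TPM and the convertase Furin with 15.07 and 17.50 TPM. Pcolce2 differed at 2.05, with 5.09 TPM in replicate 1 and 1.05 TPM in replicate 2, and Adamts2, the N-propeptide protease of types I and III, at 1.33, with 3.27 and 1.17 TPM. Tll2 and Adamts14 were below 1 TPM in both. Both genes that differed were higher in replicate 1, as were 67.3% of all differing genes.

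Cross-linking enzymes were detected in 6 of 7 cases, 5 of the 6 with a ratio being higher in replicate 2. Tgm2, a transglutaminase, had 111.82 TPM in replicate 1 and 216.90 TPM in replicate 2 and differed at -1.06. Pxdn, a peroxidase that cross-links type IV collagen, had 67.17 TPM in replicate 1 and 82.44 TPM in replicate 2. Among lysyl oxidases, Loxl2 and Loxl1 had 42.54 and 29.37 TPM in replicate 1, and 50.20 and 30.27 TPM in replicate 2. Loxl4 was below 1 TPM in both.

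Proteoglycans that bind fibers were detected in 5 of 8 cases, with a median of -0.24. Lum (lumican) had 49.89 TPM in replicate 1 and 17.66 TPM in replicate 2 and differed at 1.40. Dcn (decorin) had 35.82 TPM in replicate 1 and 38.60 TPM in replicate 2, Bgn (biglycan) 15.65 and 25.78 TPM, and Fmod (fibromodulin) 7.93 and 9.51 TPM. Kera, Prelp and Aspn were below 1 TPM in both.

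Collagen receptors were detected in 5 of 10 cases, with a median of -0.56 and 7 of 9 higher in replicate 2. Itgb1, the shared beta chain of the collagen integrins, had 217.06 TPM in replicate 1 and 266.08 TPM in replicate 2. Of its collagen-binding partner chains, Itga1 had 10.51 TPM in replicate 1 and 17.17 TPM in replicate 2, and Itga2, Itga10 and Itga11 were below 1 TPM in both. Ddr1, a receptor kinase of epithelia, had 90.22 TPM in replicate 1 and 133.35 TPM in replicate 2. Ddr2, the related kinase of mesenchyme that binds fibrillar collagen, had 17.28 TPM in replicate 1 and 5.63 TPM in replicate 2 and differed at 1.64. Ddr1, at -0.63, did not meet the rule. Gp6 of platelets and Lair1 of leukocytes were below 1 TPM.

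Collagen-degrading proteases were detected in 5 of 10 cases, with a median of 0.30 that turned to -0.01 with spike-in scaling. Mmp14, a membrane-bound collagenase, had 85.84 TPM in replicate 1 and 65.49 TPM in replicate 2. Mmp2, a gelatinase that Mmp14 activates, had 66.75 TPM in replicate 1 and 49.51 TPM in replicate 2. Mmp15 had 27.78 and 46.03 TPM and Mmp16 had 8.35 and 7.73 TPM. Ctsk, a lysosomal collagenase, had 3.54 TPM in replicate 1 and 8.67 TPM in replicate 2 and differed at -1.39. The secreted collagenases Mmp8 and Mmp13 and the gelatinase Mmp9 were below 1 TPM in both, and Mmp1a was listed at 0.

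**Figure D5:**
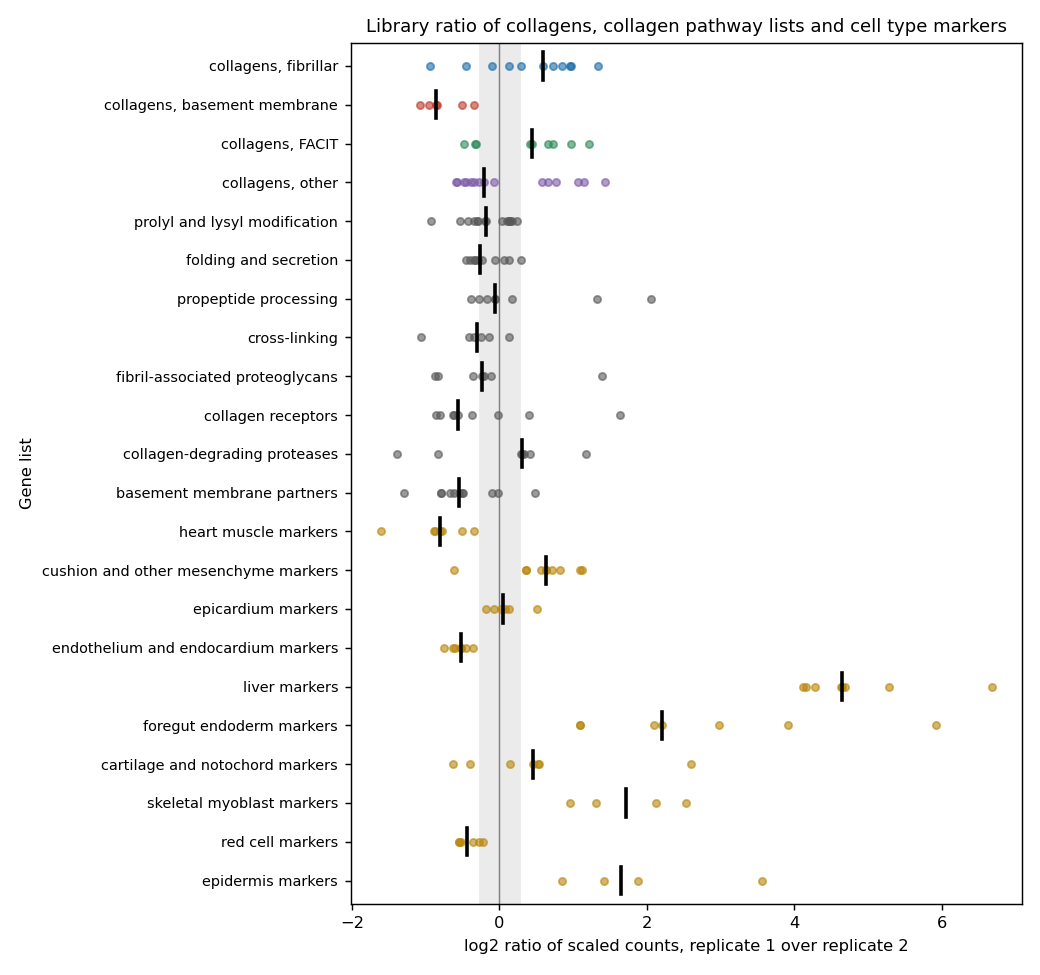
Each point is 1 gene's log2 ratio of scaled counts, replicate 1 over replicate 2 (x axis), in the collagen classes, the collagen pathway lists and the cell type marker lists (rows), with bars at medians and a gray band for the quartiles of all protein-coding genes. Basement membrane collagens (median -0.86) lie on the side of heart muscle (-0.81), endothelial (-0.52) and red cell markers (-0.44). Fibrillar collagens (0.59) lie on the side of mesenchyme (0.64), cartilage (0.46), epidermis (1.65), myoblast (1.71), foregut (2.20) and liver markers (4.64). Epicardial markers lie near 0 (0.05). What part any cell type has in the collagen ratios was not tested.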

How the data were processed

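Per the labels, each library used 10 ng of total RNA longer than 200 nt, to which ERCC spike-ins were added. The deposited tables give, per gene and per transcript, expected counts and posterior mean counts (estimated counts, not normalized), TPM, FPKM and interval bounds of TPM, which are used as a score; the transcript tables also hold the percent of a gene's TPM in each transcript, as the authors deposited it. The bounds are those of the posterior mean, so a TPM can lie outside them. Genes were quantified on mm10 with annotation M4, per the descriptions deposited with the tables. Which program quantified them, and whether it used strand, was not given in the sources used here. Without molecular identifiers, reads are not independent molecules.

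Names and positions came from GENCODE M21 (GRCm38), which matched 42462 of 43346 genes. The members, lists and pairs were chosen with earlier results of these data known. Expected counts were rounded and scaled by TMM in edgeR 4.0.16 (R 4.3.3, limma 3.58.1) with a prior count of 0.5; Python 3.11.15 with numpy 2.4.6, pandas 2.3.3 and scipy 1.17.1 did the rest, and DESeq2 1.42.0 gave alternative size factors. Pairs used log2(TPM + 0.1) and were ranked where the sign was the same in both libraries and the deposited intervals stood apart. Counts of 3 collagen genes (Col5a1, Col9a3, Col4a3) were not whole, so some of their reads were shared with other features. The rule for differing was also run on simulated data with the estimated spread. There it called genes that had been simulated without a change, at a share above that called in the data. Collagen genes at a mean of 5 TPM or more are given per library. Of each list, the 4 highest members, those below 1 TPM and those that differed are named, and of each marker list the 2 highest and those at 0. The neural crest marker list is not reported here. The pools are separate samples per the labels, and 998 genes differed between them, so both were kept.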

Additional observations from a re-analysis of the deposited data

How the results depend on the processing

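No paired analysis was possible because there is 1 group of 2 libraries. As counts, which weigh long genes more, collagens held 0.531% of protein-coding expected or posterior mean counts, and FACIT genes 3.01% of collagen counts. The median over all collagen genes, near 0, was 0.03 with deposited TPM, 0.053 with total mouse counts, 0 with no minimum count and 0.03 at a minimum of 50. The count of differing collagen genes was 12 at 1.5-fold (9 higher in replicate 1, 3 in replicate 2) and 0 at 3-fold (0 and 0). Over all genes it was 2309 at 1.5-fold, 368 at 3-fold and 1632 with no minimum count. Higher in replicate 1 and in replicate 2 were 1 and 3 collagen genes with spike-in scaling, 6 and 0 with total counts, and 4 and 0 with deposited TPM. Propeptide processing had a median of 0.036 with deposited TPM and 0.067 with total counts, and proteases -0.015 with spike-in scaling. The log2 ratio of Col5a1 to Col5a2 became 0.301 with either count, and was -0.199 without replicate 1 and 0.028 without replicate 2. That of Col4a3 to Col4a4 became 0.016 and 0.011 with expected and posterior mean counts, and that of Col9a1 to Col9a3 was -0.052 without replicate 1 and 1.27 without replicate 2. Library ratios changed sign for Col24a1 (-0.897), Col4a4 (0.046), Col5a2 (0.005) and Col8a1 (0.030) with deposited TPM, for Col5a2 (0.024) and Col8a1 (0.053) with total counts, and for Col3a1 (-0.029) and Col5a1 (-0.189) with spike-ins. The cause was not tested. In the other settings 278 single-gene ratios and 99 medians kept their direction, as did 88 values of chain pairs. A further 23 values of chain pairs kept their sign but moved beyond the spread between libraries, mostly with counts or another pseudocount. For Col11a1 to Col11a2 the log2 ratio of 3.54 became 5.17 with expected counts, 2.40 at a pseudocount of 1 and 3.77 at 0.01. For Col5a1 to Col5a3 the 7.42 became 9.20, 4.80 and 8.54 in the same settings, and for Col1a1 to Col3a1 the -0.80 became -0.33 with expected counts. The library ratio of Col15a1, 1.06, became 0.44 with deposited TPM. Genes under 1 TPM rest on few reads, and their ratios are the least reliable; with 2 pools the spread itself is poorly known.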

Other observations

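Several collagen levels per length rest on short transcript models. Col3a1-205, an incomplete model of 737 nt, held 26.9% of Col3a1 TPM in replicate 1 and 22.0% in replicate 2, but 4.26% and 3.23% of its counts. In Col12a1 the leading transcript by TPM was Col12a1-204 (1784 nt), with 33.3% in replicate 1 and 26.1% in replicate 2, while Col12a1-201 (11511 nt) held 70.6% and 64.1% of the counts. In Col24a1 the counts were 54 in replicate 1 and 30 in replicate 2, but the TPM were 0.28 and 0.53, and its length, which the deposited tables average over transcripts, was 6399 nt in replicate 1 and 2175 nt in replicate 2. The TPM and count ratios differed in sign in 4 collagen genes, Col24a1, Col4a4, Col5a2 and Col8a1, which were chosen after their values were seen.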
